A study of Mus musculus with 13 samples.

Results

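The 10 genes described here encode chaperones and co-chaperones of the cytosol that belong to the heat shock response: Hspa1a, Hspa1b, Dnajb1, Dnaja1, Hsph1, Hsp90aa1, Hspa8, Bag3, Hspb1 and Chordc1. They were taken by gene symbol, and all 10 were found among the 53278 symbols of the count files and among the 15690 genes tested. RNA came from whole hearts of 13 male wild-type C57Bl6 mice aged 17 weeks, with surgery, and the injection where there was one, at 12 weeks. The Sham group (3 hearts) had sham surgery and no injection. The IR group (3 hearts) had ischaemia and reperfusion, a temporary stop of the blood flow to heart muscle, and no injection. The IR virus group (3 hearts) had IR and a control virus. The IR edit group (4 hearts) had IR and a functional editing system directed at CaMKIIδ, a kinase of heart muscle cells that calcium and calmodulin activate. Per the series title the editing was CRISPR-Cas9 base editing. How the editing system was delivered, the kind and dose of the virus, any promoter, what the control virus carried and the hour of harvest are not stated by the labels. Each injected group therefore stands for its whole treatment. The labels do not number the mice, so p-values measure the spread between these libraries.

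Chaperones of the HSP70 family bind unfolded stretches of protein and release them in cycles of ATP hydrolysis. J-domain proteins start the cycle, nucleotide exchange factors end it, HSP90 acts on clients handed over by HSP70, and small heat shock proteins hold unfolding proteins in solution. Many of these genes are switched on together by heat shock factor 1 when unfolded protein accumulates. The factor binds inverted repeats of the letters GAA near the start site, the heat shock elements. In heart muscle the system is best known for the upkeep of the contractile filaments, in which BAG3 and the small heat shock proteins take part at the Z-disc.

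Promoters of 8 of the 10 genes were found in the RefSeq table of build GRCm38.p6, which holds 300 bases per start site (250 before and 50 after it). Hsp90aa1 and Hspa8 were not in it. Each was searched on both strands for 3 joined units of the element, which read GAANNTTC and then NNGAA, and for 2 joined units, GAANNTTC or TTCNNGAA, which the longer form contains. The pair Hspa1a and Hspa1b is shown because these genes differed most between the groups. Hsph1 and Chordc1 are shown because they alone of the 8 held the 3-unit form. The capitals mark bases in a match of either form.
Hspa1a, chr17:34972107-34972406, minus strand: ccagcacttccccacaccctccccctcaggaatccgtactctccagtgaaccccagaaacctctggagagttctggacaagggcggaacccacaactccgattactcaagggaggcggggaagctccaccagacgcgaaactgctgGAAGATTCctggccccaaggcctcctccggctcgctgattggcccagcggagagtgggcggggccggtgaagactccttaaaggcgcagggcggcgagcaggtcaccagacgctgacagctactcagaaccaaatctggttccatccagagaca
Hspa1b, chr17:34959189-34959488, minus strand: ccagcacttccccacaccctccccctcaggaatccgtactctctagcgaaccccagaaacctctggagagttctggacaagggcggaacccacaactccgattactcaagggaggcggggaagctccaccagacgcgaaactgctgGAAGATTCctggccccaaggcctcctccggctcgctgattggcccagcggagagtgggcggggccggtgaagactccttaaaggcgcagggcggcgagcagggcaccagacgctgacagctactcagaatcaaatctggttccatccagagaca
Hsph1, chr5:149636287-149636586, minus strand: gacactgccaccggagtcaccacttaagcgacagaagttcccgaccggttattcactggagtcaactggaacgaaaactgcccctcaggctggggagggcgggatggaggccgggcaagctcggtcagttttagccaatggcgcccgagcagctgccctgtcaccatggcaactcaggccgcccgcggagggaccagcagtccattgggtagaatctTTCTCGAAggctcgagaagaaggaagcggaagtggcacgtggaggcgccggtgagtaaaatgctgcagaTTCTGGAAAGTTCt
Chordc1, chr9:18292017-18292316, plus strand: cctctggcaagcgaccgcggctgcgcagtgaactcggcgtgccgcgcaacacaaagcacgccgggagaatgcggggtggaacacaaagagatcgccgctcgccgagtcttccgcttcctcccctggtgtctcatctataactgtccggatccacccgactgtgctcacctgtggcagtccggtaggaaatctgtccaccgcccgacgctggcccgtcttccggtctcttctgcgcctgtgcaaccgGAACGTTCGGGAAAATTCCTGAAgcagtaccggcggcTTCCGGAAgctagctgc

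With the start site counted as 0, the Hspa1a and Hspa1b windows each held 1 match of the 2-unit form, from base -104 to -97, and the windows were identical at 296 of 300 bases. Chordc1 held 3 overlapping matches of the 3-unit form, which ran together from base -4 to 18. Hsph1 held 1, from base 36 to 48. Among all 32851 promoters of the table, 0.603% held the 3-unit form, and 1 held 3 or more matches of it, the Chordc1 promoter. The 2-unit form occurred in 15.1% of all promoters. By gene it occurred in 17.0% of all genes of the table and in 7 of the 8 chaperone genes, all but Dnajb1. A match is a description of the letters, and binding was not measured.

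Hspa1a and Hspa1b lie on the minus strand of chromosome 17 of mm10, from 34969190 to 34972156 and from 34956436 to 34959238. Both encode the stress-inducible HSP70, and their counts cannot be separated cleanly. Of the windows of 100 bases along the Hspa1a transcript, 47.1% occurred unchanged in the Hspa1b transcript, and of those along Hspa1b 49.9% occurred in Hspa1a. How reads with several matches were counted is not stated. In the GENCODE M21 annotation 2225 bases of Hspa1a also overlap Gm20481 on the opposite strand, which is listed at 0 counts in all 13 hearts. Whether strand was used in counting is not given either, so the levels of both genes are uncertain and their sum is given beside them. Dnaja1 and Chordc1 overlap genes of the opposite strand too, by up to 608 and 1819 bases with introns included.

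Before the groups are compared, 1 library has to be set apart. In IR replicate 3 the level of Hsph1 was 186 CPM (the count relative to the library total, corrected by the TMM factor), and the other 8 hearts outside the IR edit group lay between 53.1 and 65.3. Hsp90aa1 was at 161 CPM there and at 70.2 or less in those 8 hearts. IR replicate 3 had the highest level of all 13 hearts for Hsph1, Hsp90aa1, Hspa8 and Chordc1. Results that rest on the IR group are therefore given with and without it. This library was singled out after its values were seen. Its total of 23426329 counts and its 35.6% of counts from mitochondrial genes lay within the ranges of all 13 libraries, 20634820 to 27265276 counts and 29.7% to 38.5%. The labelled tissue fitted its markers: 10 heart muscle genes summed to between 40965 and 53170 CPM in every heart, and 9 genes of fast skeletal muscle to 2.45 CPM at most.

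Per kilobase of exon, the constitutive HSP70 gene Hspa8 had the highest level of the 10 in Sham hearts, 96.7 CPM per kilobase, followed by Bag3 at 55.2, Hspb1 at 21.7 and Hsp90aa1 at 16.0. Chordc1 stood at 9.09 CPM per kilobase and Hsph1 at 8.21, and their Sham hearts overlapped (8.67 to 9.82 against 7.42 to 8.88). The J-domain genes Dnaja1 and Dnajb1 stood at 4.24 and 3.44 CPM per kilobase and overlapped as well (3.98 to 4.74 against 3.06 to 4.05). The inducible pair stood lowest, Hspa1b at 0.329 and Hspa1a at 0.143 CPM per kilobase. In Sham hearts the reads behind Hspa1a numbered only 9 to 11 per library and those behind Hspa1b 18 to 29.

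**Figure D1:**
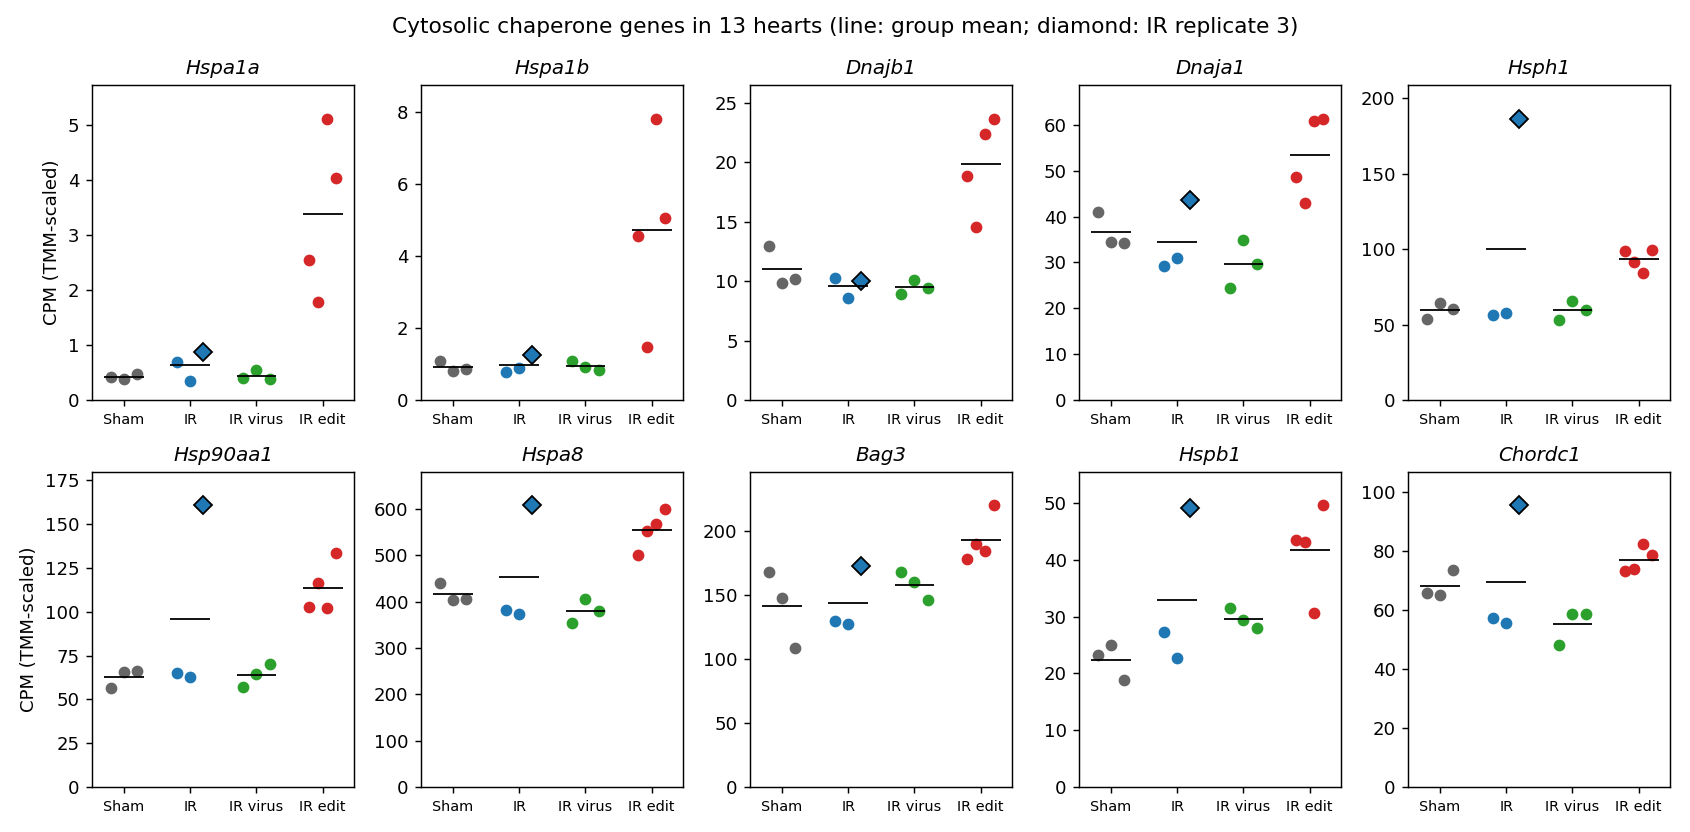
Level of each of the 10 chaperone genes in CPM (y axes, linear and from 0) in the hearts of the 4 groups, with 1 point per heart, a line at the group mean and a diamond for IR replicate 3. Hspa1a, Hspa1b and Dnajb1 are higher in all 4 IR edit hearts than in the other 9, while Hsph1 and Hsp90aa1 are highest in IR replicate 3.

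The hearts with the editing system had more transcript of the inducible HSP70 genes and of their J-domain partners than Sham hearts and than injured hearts with the control virus. In edgeR's quasi-likelihood test 6 of the 10 genes rose in IR edit against Sham: Hspa1a, Hspa1b, Dnajb1, Dnaja1, Hsp90aa1 and Hspb1. Of all genes tested, 8.01% passed in that comparison and 4.61% passed as higher. Against IR virus 4 of the 10 rose, Hspa1a, Hspa1b, Dnajb1 and Dnaja1, where 2.02% of all genes passed and 0.962% passed as higher. No member fell in either comparison. The median log2 fold change of the 10 genes was 0.75 against Sham and 0.74 against IR virus, and that of all genes tested was -0.0015 and -0.0077. Because RNA came from whole hearts, a change in the share of a cell type and a change in transcript per cell cannot be told apart.

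Hspa1a, the first of the inducible HSP70 genes, was at 0.415, 0.388 and 0.473 CPM in Sham replicates 1 to 3 and at 0.398, 0.546 and 0.379 CPM in IR virus. In IR it was at 0.693, 0.341 and 0.867 CPM, and in IR edit replicates 1 to 4 at 2.56, 1.79, 5.12 and 4.05 CPM. Every IR edit heart lay above every other heart, and replicates 3 and 4 were the highest. Hspa1a rose by a log2 fold change of 2.97 ± 0.39 (SE) against Sham (adjusted p = 0.000845) and of 2.91 ± 0.38 against IR virus (adjusted p = 0.000987).

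Its copy Hspa1b was at 1.10, 0.818 and 0.851 CPM in Sham, 0.779, 0.895 and 1.26 in IR and 1.07, 0.924 and 0.842 in IR virus. The IR edit hearts were at 4.56, 1.48, 7.81 and 5.06 CPM. They also lay above all other hearts, replicate 2 by the smallest margin. The log2 fold change was 2.33 ± 0.41 against Sham (adjusted p = 0.0049) and 2.30 ± 0.41 against IR virus (adjusted p = 0.00968). Added together, the reads of the pair numbered 28 to 49 in the 9 hearts outside IR edit and 192, 73, 250 and 225 in IR edit replicates 1 to 4. With the pair counted as 1 gene the log2 fold change was 2.57 ± 0.36 against Sham (adjusted p = 0.00123) and 2.53 ± 0.36 against IR virus (adjusted p = 0.00211). Hspa1b lost its call against IR virus without IR virus replicate 3 (adjusted p = 0.0564).

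Dnajb1, the J-domain protein that activates the inducible HSP70 under stress, was at 12.99, 9.82 and 10.2 CPM in Sham, 10.3, 8.57 and 10.1 in IR and 8.92, 10.1 and 9.43 in IR virus. In IR edit it was at 18.9, 14.6, 22.4 and 23.7 CPM. All 4 IR edit hearts lay above the other 9, and IR replicate 3 stood in the middle of the unedited hearts. Dnajb1 rose by 0.85 ± 0.15 on the log2 scale against Sham (adjusted p = 0.00495) and by 1.07 ± 0.15 against IR virus (adjusted p = 0.00211). It passed in each of these comparisons under all settings tried, and Hspa1a did too.

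Dnaja1, a J-domain protein that also carries clients to HSP70, was at 40.9, 34.5 and 34.3 CPM in Sham, 29.2, 30.9 and 43.6 in IR and 24.4, 34.9 and 29.6 in IR virus. The IR edit hearts were at 48.6, 43.0, 60.8 and 61.3 CPM. They were all above the Sham and IR virus hearts, and replicate 2 lay just under IR replicate 3. The log2 fold change was 0.54 ± 0.16 against Sham (adjusted p = 0.0476) and 0.85 ± 0.16 against IR virus (adjusted p = 0.0137). The call against Sham was lost without any one of Sham replicates 1, 2 and 3 or IR edit replicates 3 and 4. It was also lost when IR edit and Sham were fitted alone and with the replicate number as a block (adjusted p up to 0.139 over these settings). The call against IR virus was lost without IR virus replicate 1 or 3 (adjusted p up to 0.0926).

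Hsp90aa1 encodes the stress-inducible form of HSP90. It was at 56.4, 65.4 and 66.3 CPM in Sham, 57.2, 64.6 and 70.2 in IR virus and 103, 116, 102 and 134 in IR edit. In IR it was at 65.1, 62.5 and 161 CPM. The IR edit hearts lay above all Sham and IR virus hearts and below IR replicate 3. Hsp90aa1 rose by 0.86 ± 0.25 on the log2 scale against Sham (adjusted p = 0.0464). This call was lost with DESeq2, with the replicate number as a block and without any one of the 3 Sham hearts or IR edit replicates 1, 2 or 4 (adjusted p up to 0.133 over these settings). The difference from IR virus was 0.83 ± 0.25 on the same scale (adjusted p = 0.108).

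Hspb1, a small heat shock protein, was at 23.3, 25.1 and 18.9 CPM in Sham, 27.3, 22.8 and 49.1 in IR, 31.5, 29.4 and 28.0 in IR virus and 43.5, 43.2, 30.6 and 49.6 in IR edit. IR edit and Sham did not overlap, and IR edit replicate 3 fell within the IR virus range. The log2 fold change was 0.90 ± 0.21 against Sham (adjusted p = 0.0211) and 0.50 ± 0.21 against IR virus (adjusted p = 0.28). The call against Sham was lost without Sham replicate 1 or 3, without IR edit replicate 2 or 4 and with the replicate number as a block (adjusted p up to 0.0937 over these settings).

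The other 4 genes did not pass in either comparison in edgeR's test. DESeq2 called Hspa8 (adjusted p = 0.0346) and Bag3 (adjusted p = 0.0213) against Sham, where it called 10.8% of all genes, and Hspa8 against IR virus (adjusted p = 0.00556), where it called 3.3%. Hspa8, the constitutive HSP70, was at 440, 403 and 406 CPM in Sham, 354, 405 and 379 in IR virus and 502, 552, 567 and 601 in IR edit, with no overlap. Its log2 fold change was 0.42 ± 0.14 against Sham (adjusted p = 0.073) and 0.55 ± 0.14 against IR virus (adjusted p = 0.0536). Hsph1, the HSP110 exchange factor that releases nucleotide from HSP70, was at 53.9, 64.5 and 60.6 CPM in Sham, 53.1, 65.3 and 59.7 in IR virus and 98.5, 91.7, 84.3 and 99.3 in IR edit. These groups did not overlap either, and the fitted SE was larger than for Hspa8 (0.65 ± 0.30 against both Sham and IR virus, adjusted p = 0.211 and 0.324). Bag3, the exchange factor of the Z-disc, was at 168, 148 and 109 CPM in Sham, 168, 160 and 146 in IR virus and 178, 189, 184 and 220 in IR edit. Its log2 fold changes were 0.45 ± 0.14 (adjusted p = 0.0594) and 0.29 ± 0.14 (adjusted p = 0.339). Chordc1, an HSP90 co-chaperone with zinc-binding CHORD domains, was at 65.8, 65.0 and 73.6 CPM in Sham, 48.1, 58.6 and 58.7 in IR virus and 73.2, 73.8, 82.2 and 78.7 in IR edit. It overlapped with Sham and not with IR virus, with log2 fold changes of 0.18 ± 0.15 (adjusted p = 0.521) and 0.48 ± 0.15 (adjusted p = 0.13). In the IR hearts, replicates 1 to 3, Hspa8 was at 382, 373 and 608 CPM, Hsph1 at 56.2, 57.7 and 186, Bag3 at 130, 128 and 173 and Chordc1 at 57.1, 55.4 and 95.3. Replicate 3 was the highest of the IR hearts for all 4 genes, and above the IR edit hearts for all but Bag3.

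Complete separation was more frequent than calls. In IR edit against Sham every edited heart was above every Sham heart for 9 of the 10 genes, all but Chordc1, and this held for 8.22% of all genes tested. Against IR virus it held for 9 of the 10, all but Hspb1, and for 6.83% of all genes.

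The spread that enters these tests comes from all 4 groups, so IR replicate 3 widens it for the genes in which it stood apart. In the fit without that library, an alternative chosen after seeing the data, 9 of the 10 genes passed in IR edit against Sham (7.75% of all genes, 4.5% as higher), all but Chordc1. Against IR virus 8 passed (2.11% of all genes, 1.02% as higher). Hsph1 then had a log2 fold change of 0.65 ± 0.089 against IR virus (adjusted p = 0.0018), Hsp90aa1 of 0.83 ± 0.10 (adjusted p = 0.00104), Hspa8 of 0.55 ± 0.078 (adjusted p = 0.00244) and Chordc1 of 0.48 ± 0.084 (adjusted p = 0.00956). Bag3 (adjusted p = 0.279) and Hspb1 (adjusted p = 0.0917) did not pass. A fit of only the IR edit and IR virus libraries called the same 8 genes and 1.44% of all genes. A fit of only the IR edit and Sham libraries, also without IR replicate 3, called 6 of the 10 and 246 of all genes. Those 6 were Hspa1a, Hspa1b, Dnajb1, Hsph1, Hsp90aa1 and Hspb1, so the count of 9 against Sham did not hold there.

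The number of genes called between IR edit and uninjected IR hearts depended on that heart. With all libraries 3 of the 10 genes rose, Hspa1a by 2.40 ± 0.36, Hspa1b by 2.26 ± 0.41 and Dnajb1 by 1.04 ± 0.15 on the log2 scale (adjusted p = 0.00373, 0.0116 and 0.00252), where 1.42% of all genes passed and 0.784% passed as higher. Every edited heart was above every IR heart for these 3 genes and Bag3, and for 5.97% of all genes. Hsph1 had a log2 fold change of -0.10 ± 0.30 (adjusted p = 0.922). Without IR replicate 3 the count was 9 of 10, all but Bag3, where 1.14% of all genes passed and 0.608% as higher. Hsph1 then had a log2 fold change of 0.71 ± 0.10 (adjusted p = 0.00401) and Hsp90aa1 of 0.84 ± 0.12 (adjusted p = 0.00401). Without IR replicate 1 or 2 the count was 2, Hspa1a and Dnajb1, and Hspa1b was at an adjusted p of 0.0878 and 0.0835.

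**Figure D2:**
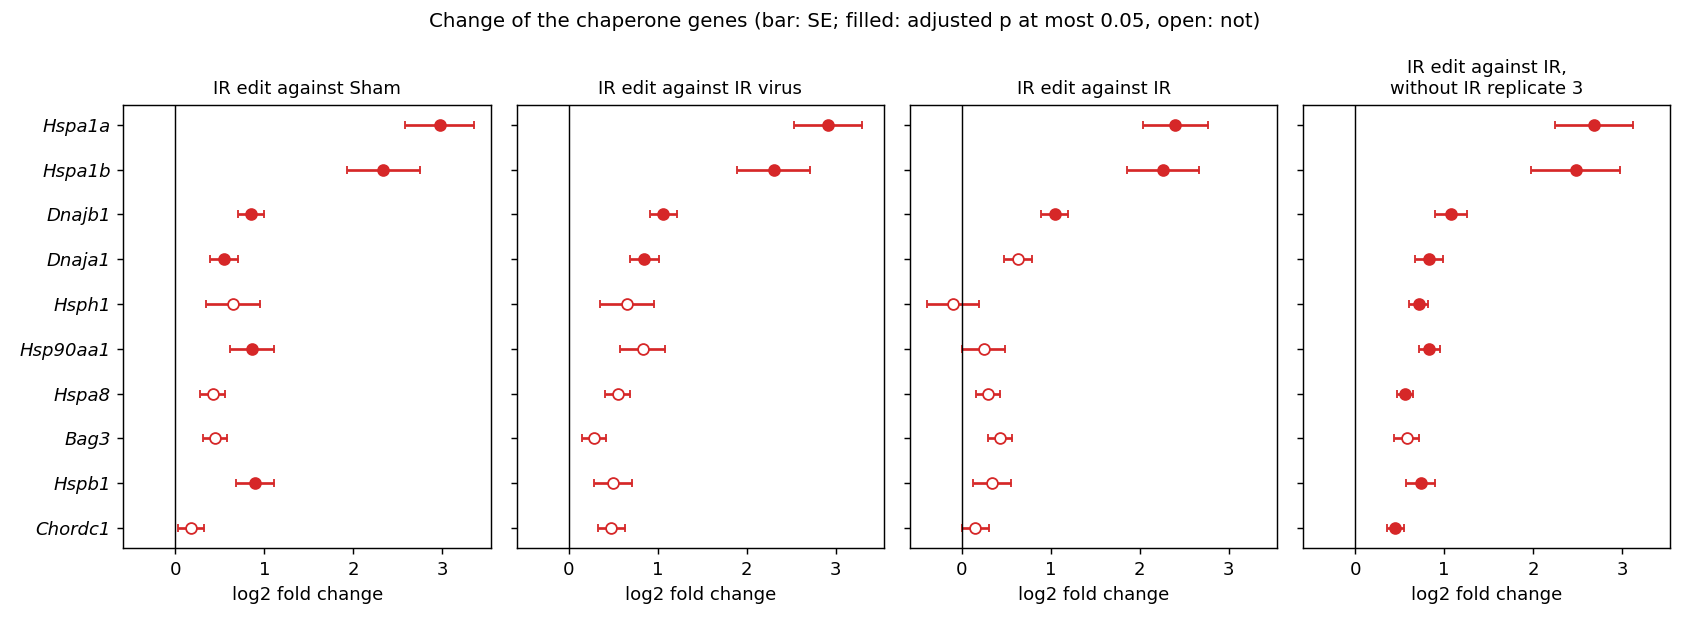
Log2 fold change of the 10 genes (x axis) in IR edit against Sham, against IR virus, against IR and against IR without IR replicate 3, with bars of 1 SE and filled points where the adjusted p was at most 0.05. Hspa1a and Hspa1b lie farthest to the right in all 4 panels, and Hsph1 moves from -0.10 to 0.71 when IR replicate 3 is left out.

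Injury alone, and injury with the control virus, went with no call among the 10 genes in edgeR's test. In IR against Sham 0 of 10 passed, with 3 at an unadjusted p under 0.05 (Hsph1, Hsp90aa1 and Hspb1), beside 0.0127% of all genes called and 8.33% at an unadjusted p under 0.05. The 3 log2 fold changes were 0.75 ± 0.32, 0.62 ± 0.26 and 0.56 ± 0.23, and without IR replicate 3 they were -0.068 ± 0.11, 0.024 ± 0.12 and 0.16 ± 0.17. DESeq2 also called 0. In IR virus against Sham 0 of 10 passed, with 0 at an unadjusted p under 0.05, beside 0.0127% and 15.4% of all genes, and DESeq2 called 0. The log2 fold changes ran from -0.31 for Chordc1 and Dnaja1 to 0.40 ± 0.23 for Hspb1. Every IR virus heart lay above every Sham heart for Hspb1 (28.0 to 31.5 against 18.9 to 25.1 CPM). For Chordc1 every IR virus heart lay below every Sham heart (48.1 to 58.7 against 65.0 to 73.6 CPM). In IR virus against IR 0 of 10 passed, with 2 at an unadjusted p under 0.05 (Hsph1 and Hsp90aa1), beside 0% and 3.84% of all genes, and DESeq2 called 0. The log2 fold changes of Hsph1 and Hsp90aa1 there were -0.75 and -0.59, and without IR replicate 3 they were 0.060 ± 0.11 and 0.0048 ± 0.12 (adjusted p = 0.997 and 0.999). These comparisons share hearts with each other and with those above.

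The order of the 10 genes in IR replicate 3 differed from that in the edited hearts. Relative to the mean of IR replicates 1 and 2, Hsph1 was 3.27-fold higher there, Hsp90aa1 2.52-fold, Hspb1 1.96-fold, Chordc1 1.69-fold, Hspa1a 1.68-fold, Hspa8 1.61-fold, Hspa1b 1.501-fold, Dnaja1 1.45-fold, Bag3 1.34-fold and Dnajb1 1.07-fold. In the edited hearts, relative to the IR virus mean, the mean of Hspa1a was 7.67-fold higher, that of Hspa1b 4.99-fold and that of Dnajb1 2.09-fold. Next came Dnaja1 at 1.80-fold, Hsp90aa1 at 1.78-fold, Hsph1 at 1.57-fold and Hspa8 at 1.46-fold. Hspb1 was 1.41-fold, Chordc1 1.40-fold and Bag3 1.22-fold higher. For Hspa1a, Hspa1b and Dnajb1 all 4 edited hearts lay above IR replicate 3, and for Hsph1, Hsp90aa1, Hspa8 and Chordc1 all 4 lay below it. With 0.5 CPM added to each level, 6 of the 10 genes had a log2 ratio of at least 0.5 in IR replicate 3 against the other IR hearts, as did 1.85% of the 13113 genes with a mean of at least 1 CPM. This is 1 heart, so its difference has no replicate and no test. Chordc1 and Hsph1, whose promoters above hold the 3-unit element, were among the 4 genes whose level in this heart was the highest of the 13. Hsp90aa1 and Hspa8 have no promoter in the table to compare. By fold over the other IR hearts Hspb1 (1.96) and Hspa1a (1.68), without the 3-unit form, stood above and close to Chordc1 (1.69). A relation between the element and the level in this heart was not tested.

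**Figure D3:**
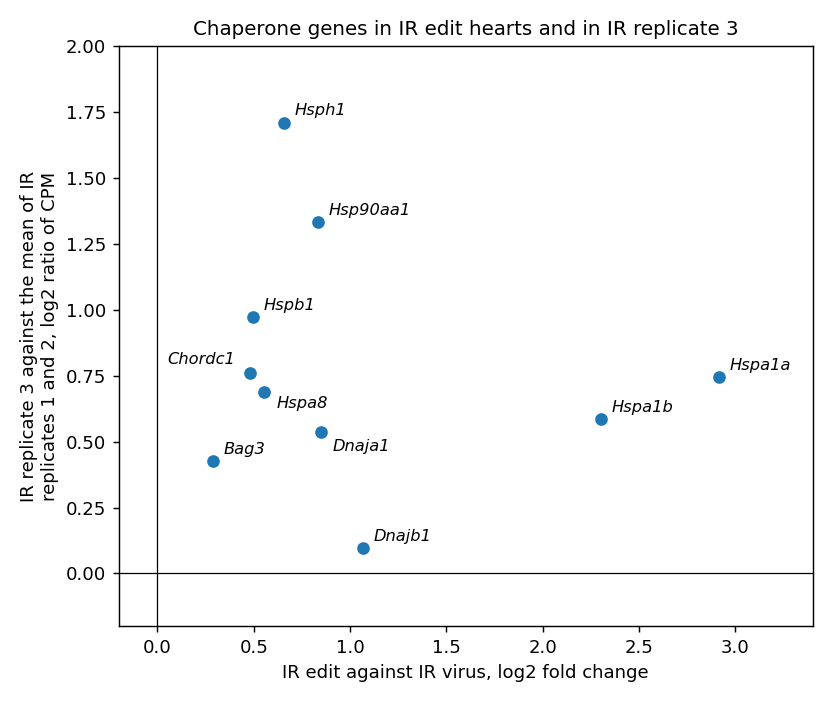
Each of the 10 genes by its log2 fold change in IR edit against IR virus (x axis) and its log2 ratio of CPM between IR replicate 3 and the mean of IR replicates 1 and 2 (y axis). Hsph1 and Hsp90aa1 lie high on the y axis at 1.71 and 1.33, and Hspa1a, Hspa1b and Dnajb1 lie farthest along the x axis with y values of 0.75, 0.59 and 0.09.

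Most other genes of the folding machinery did not pass. Among heat shock factors and their regulators 0 of 4 tested genes passed in any of the 6 comparisons. Hsf1, the factor itself, ran from 11.8 to 16.7 CPM over the 13 hearts. Other cytosolic J-domain genes (9 tested), other exchange factors of HSP70 (6), HSP90 beta with the HSP90 co-chaperones (20), TRiC chaperonin and prefoldin subunits (14) and mitochondrial chaperones (11) had 0 called by edgeR in IR edit against Sham and against IR virus. Their median log2 fold changes against IR virus were 0.15, 0.05, 0.08, 0.10 and -0.0088. At an unadjusted p under 0.05 there were 12 of these 60 genes against Sham and 10 against IR virus, beside 23.6% and 15.2% of all genes tested, and DESeq2 called 1 and 0.

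Of the 7 other cytosolic HSP70 and HSP110 genes 1 rose against Sham and 0 against IR virus. It was Hspa1l, the HSP70 gene next to Hspa1a, with a log2 fold change of 1.11 ± 0.30 against Sham (adjusted p = 0.0347) and 0.88 ± 0.29 against IR virus (adjusted p = 0.153), and 4.67% of the windows of 100 bases along Hspa1a also occur in it. Its IR edit replicates 2 and 4 were highest, at 4.62 and 5.62 CPM, while replicates 1 and 3 were at 2.67 and 2.54. Of the 7 other small heat shock protein genes tested 3 rose against Sham and 0 against IR virus. They were Hspb6, Hspb8 and Hspb7, all abundant in muscle, at 0.57 ± 0.12, 0.44 ± 0.091 and 0.55 ± 0.14 (adjusted p = 0.0111, 0.0111 and 0.0274). Of all genes 4.61% passed as higher against Sham and 0.962% against IR virus. Sham, IR, IR virus and IR edit ran from 372 to 448, 466 to 480, 484 to 559 and 506 to 718 CPM for Hspb6. For Hspb8 they ran from 281 to 320, 339 to 395, 339 to 375 and 367 to 457. For Hspb7 they ran from 1002 to 1256, 1181 to 1343, 1294 to 1559 and 1294 to 1993. Unedited injured hearts thus lay above Sham for Hspb6 and Hspb8, and IR virus hearts for Hspb7. Cryab, the small heat shock protein alphaB-crystallin, ran from 671 to 962 CPM and was highest in IR replicate 3. Hsf1, Cryab and Hspa5 were named after their values were seen.

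In the endoplasmic reticulum, which has its own stress response, 1 of 17 chaperone genes rose in each of these comparisons. Against IR virus it was Manf, a secreted protein induced by unfolded protein in that compartment (0.56 ± 0.11, adjusted p = 0.0162), and against Sham it was Creld2, another such protein (0.42 ± 0.10, adjusted p = 0.0228). Of all genes 0.962% passed as higher against IR virus and 4.61% against Sham. The list's median was 0.20 against IR virus and 0.09 against Sham. At an unadjusted p under 0.05 there were 6 of the 17 genes against IR virus and 5 against Sham, beside 15.2% and 23.6% of all genes. DESeq2 called 2 and 4, beside 3.3% and 10.8%. Hspa5, the HSP70 of that compartment, was at 778 CPM in IR replicate 3, above all 12 other hearts (523 to 716).

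**Figure D4:**
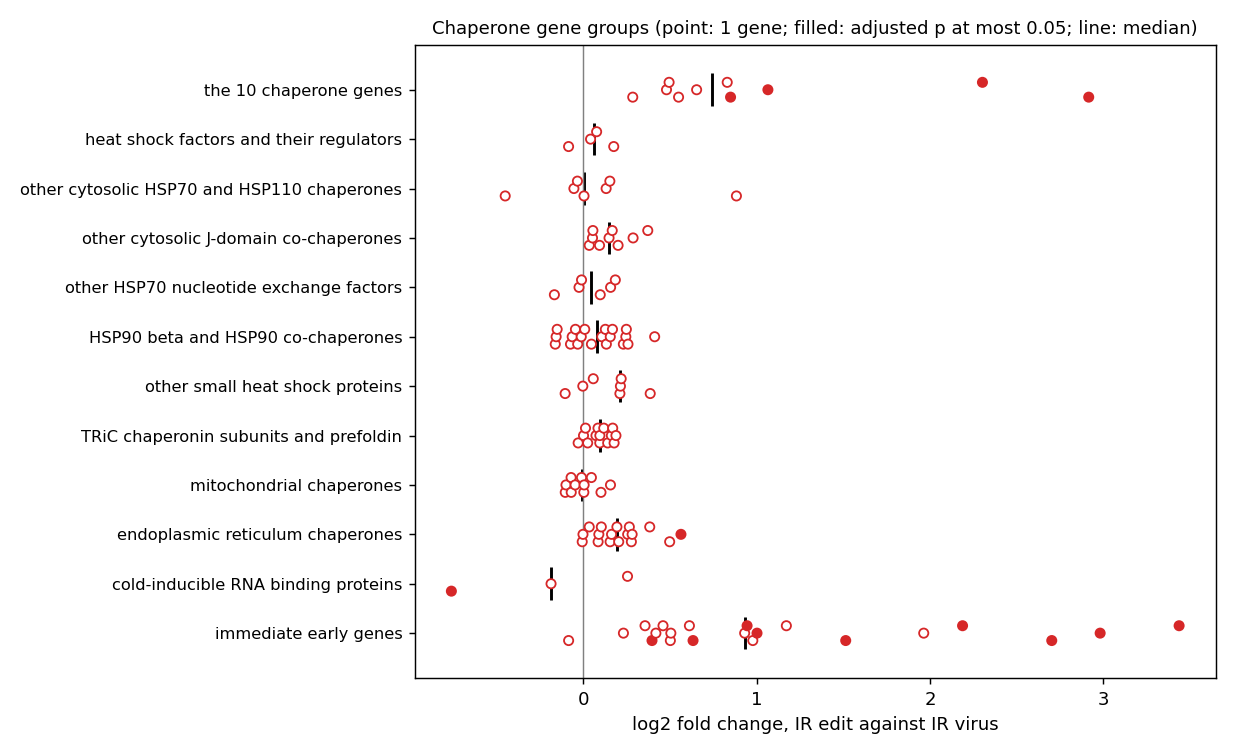
Log2 fold change in IR edit against IR virus (x axis) of the 10 chaperone genes and of the tested genes of 11 related lists, 1 point per gene, filled where the adjusted p was at most 0.05, with a line at the list median. The 10 chaperones have a median of 0.74 and the immediate early genes of 0.93, while the other chaperone lists lie between -0.0088 and 0.21.

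Other gene lists moved with the edited hearts. Immediate early genes, which respond within minutes to many stimuli, had many calls: 16 of the 21 tested passed as higher when IR edit was compared with Sham, 9 when it was compared with IR virus, and 0 passed as lower. Of all genes tested 4.61% passed as higher against Sham and 0.962% against IR virus. Their summed level was 297 to 360 CPM in Sham, 297 to 314 in IR, 301 to 329 in IR virus and 477 to 777 in IR edit. IR replicate 3, at 314 CPM, was within the range of the unedited hearts. The largest change was that of the nuclear receptor gene Nr4a1, which was at 31.2, 24.3, 38.4 and 53.0 CPM in IR edit and at 6.11 CPM or less elsewhere. Cirbp, an RNA binding protein that is induced by cooling and lowered by warmth, went the other way. It fell by 0.76 ± 0.17 on the log2 scale against IR virus (adjusted p = 0.0301) and by 0.65 ± 0.17 against Sham (adjusted p = 0.031). Its level was 22.5, 19.6, 21.5 and 19.5 CPM in IR edit and 21.1 CPM in IR replicate 3, and 28.2 to 40.1 CPM in the other 8 hearts. Rbm3, another cold-inducible gene, was lowest of all hearts in IR replicate 3 (12.2 CPM) and had a log2 fold change of 0.26 ± 0.16 in IR edit against IR virus (adjusted p = 0.465). Against Sham its log2 fold change was 0.37, not called. Srsf5, the remaining gene of this list, was at 156, 145, 175 and 153 CPM in IR edit and at 145 CPM in IR replicate 3. It was at 173 to 213 CPM in the other 8 hearts and was not called in either comparison. The part of these differences in the chaperone result was not tested.

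Calls among cell type markers differed by comparison. In IR edit against IR virus 0 of 10 heart muscle, 0 of 8 endothelial, 0 of 8 fibroblast, 0 of 8 smooth muscle and pericyte, 0 of 9 macrophage and leukocyte and 0 of 6 red blood cell genes passed in edgeR's test. Of these 49 genes 5 had an unadjusted p under 0.05, as did 15.2% of all genes tested, and DESeq2 called 2. Against Sham 4 of the 8 fibroblast genes rose (Col1a1, Col1a2, Gsn and Pdgfra). Also, 1 heart muscle gene rose (Mybpc3, a thick filament protein) and 1 pericyte gene fell (Kcnj8, a potassium channel). Together 6 of the 49 genes were called against Sham, beside 8.01% of all genes. At an unadjusted p under 0.05 there were 14, beside 23.6% of all genes, and DESeq2 called 8, beside 10.8%. The summed fibroblast level was 1411 to 1518 CPM in Sham, 1671 to 2106 in IR, 1884 to 2228 in IR virus and 1595 to 2236 in IR edit. Adipocyte genes summed to 3.36 CPM at most. The part of these cells in the result was not tested.

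Within groups the 10 genes varied together to different degrees. Each was taken as its deviation from the group mean and scaled to unit SD, and the 10 were averaged. Hspa8 followed this average most closely over the 13 hearts (r = 0.93), then Dnaja1 (0.88) and Chordc1 (0.86), and Hspb1 (0.69), Bag3 (0.67), Dnajb1 (0.61) and Hspa1b (0.56) least. IR replicate 3 was then left out of the correlation but kept in the group means and the scaling. Dnaja1 stood highest in that setting (0.87), then Hspa8 (0.85) and Dnajb1 (0.77), and Hspb1 lowest (0.41). These correlations contain the gene itself. Among 11922 other named genes with a mean of at least 1 CPM, the 8 most alike were Eif2ak1, the haem-regulated kinase of translation factor eIF2 (r = 0.92), Hsp90ab1, the constitutive HSP90 (0.91), Hivep2 (0.91), the ubiquitin ligase gene Huwe1 (0.89), Ints13 (0.88), Nelfa (0.88), Gapvd1 (0.88) and Neu3 (0.87). The hearts share their scaling, and IR replicate 3 weighs heavily in these values. With it left out of the correlation they were 0.85 for Eif2ak1, 0.81 for Hsp90ab1 and between 0.73 and 0.80 for the others. The group means and the scaling still held that heart, so these lower values are not free of it. None of the 8 passed in IR edit against Sham or against IR virus, where the smallest adjusted p was 0.0918, for Hsp90ab1 against Sham.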

How the data were processed

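RNA was isolated from whole hearts with the RNeasy Micro Kit and made into libraries with the KAPA mRNA HyperPrep kit, per the labels' protocols. The authors deposited a file for each library with its read counts by gene symbol, not normalized. The submitters' processing notes name HISAT2 2.1.0, featureCounts 1.6.2, Trimmomatic 0.39, FastQC 0.11.8 and build mm10. The annotation, the use of strand and the handling of reads with several matches are not stated in these notes.

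Counts of all 13 libraries were scaled with TMM and filtered with filterByExpr (minimum count 10), which left 15690 genes. They were tested with edgeR 4.0.16 (quasi-likelihood, a mean per group) in R 4.3.3. P-values were adjusted by Benjamini-Hochberg over all genes tested, with a threshold of 0.05. The SE was taken as the size of the log2 fold change over the square root of F. Levels are CPM. Gene positions came from GENCODE M21 and promoters from RefSeq. All 10 members passed the filter, also without the IR edit libraries. Of 15 pairs of libraries within groups 0 held identical counts.

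The members and the gene lists were chosen with earlier results of these data known. All 10 members were described in every comparison. Other genes were named by list, at most the 3 with the smallest p in IR edit against Sham or against IR virus, and 8 genes by their likeness to the members. Alternatives were DESeq2's size factors, the Wald test of DESeq2 1.42.0, no filter, a fit of only the groups compared, the replicate number as a block, leaving out each heart, and Hspa1a and Hspa1b summed. The fit without IR replicate 3 for comparisons that do not involve it was added after seeing the data. The pipeline was tested on simulated counts.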

Additional observations from a re-analysis of the deposited data

How the results depend on the processing

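Hspa1a and Dnajb1 rose in IR edit against Sham, IR virus and IR under every setting tried. Of 780 values of single members under the alternatives, 678 kept their direction and side of the threshold, 26 lost a call, 43 gained one and 33 changed sign. None of those 33 was called with all settings as reported, and 1 was called after the change, Hsph1 in IR edit against IR without IR replicate 3. With 3 or 4 hearts a group, and 8 to 29 reads for Hspa1a and Hspa1b in unedited hearts, precision was limited by the numbers of hearts and reads.

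The number of members called was 6 in IR edit against Sham, 4 against IR virus and 3 against IR, beside 8.01%, 2.02% and 1.42% of all genes tested. Without the filter it was 9, 10 and 7, beside 2205, 1018 and 1021 of all genes. It was then 3 in IR against Sham (Hsph1, Hsp90aa1 and Hspb1), beside 598 of all genes. In IR virus it was 1 against Sham (Hspb1) and 2 against IR (Hsph1 and Hsp90aa1), beside 863 and 37. The SE of Hsph1 in IR against Sham was 0.10 without the filter and 0.32 with it. With the filter and without IR replicate 3, Hsph1, Hsp90aa1 and Hspb1 in IR against Sham were at -0.068, 0.024 and 0.16, not called. DESeq2's Wald test called 7 in IR edit against Sham, 5 against IR virus and 4 against IR, beside 1633, 517 and 443 of all genes. The count was 8 against IR virus in a fit of only those 2 groups, and with IR replicate 3 out of the fit it was 8 there and 9 against Sham. Leaving out each heart of the groups compared in turn gave 3 to 6 against Sham, 2 to 5 against IR virus and 2 to 9 against IR, the 9 being without IR replicate 3. The count against Sham was 3 without Sham replicate 3 or IR edit replicate 4, and 4 without Sham replicate 1 or 2 or IR edit replicate 2. The cause was not tested.

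Over all genes, 1257 were called in IR edit against Sham, 317 against IR virus, 223 against IR, 2 in IR against Sham, 2 in IR virus against Sham and 0 in IR virus against IR. Without the filter these were 2205, 1018, 1021, 598, 863 and 37. With DESeq2's Wald test IR edit gave 517 against IR virus and 443 against IR, IR against Sham 57 and IR virus against Sham 202. A fit of only the 2 groups gave 246 in IR edit against Sham, 115 in IR against Sham and 203 in IR virus against Sham, and with IR replicate 3, a heart of neither group, out of the fit there were 12 in IR virus against Sham. Leaving out each heart of the groups compared gave 478 to 2351, 96 to 477, 59 to 489, 0 to 5, 0 to 7 and 0 to 1, in the order above.

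With the replicate number as a block, 3 members were called in IR edit against Sham, as Dnaja1 (adjusted p = 0.139), Hsp90aa1 (0.0845) and Hspb1 (0.0937) lost their calls, and over all genes 590 against Sham, 159 against IR virus, 122 against IR, 5 in IR against Sham and 174 in IR virus against Sham. Under the block the log2 fold change of Chordc1 in IR against Sham was -0.0047 and that of Hsph1 in IR edit against IR 0.0077. The labels do not say whether the numbers pair the hearts. Same-numbered hearts of different groups correlated at -0.239 to 0.377, with 7 of 18 pairs over 0.1, and other pairs at -0.322 to 0.316. These ranges overlap, so they do not settle whether the hearts are paired.

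Some log2 fold changes that were not called with all hearts changed sign when a heart was left out. In IR against Sham Bag3 ran from -0.14 to 0.15, Chordc1 from -0.28 to 0.16, Dnaja1 from -0.29 to 0.022, Hspa1b from -0.15 to 0.22, Hspa8 from -0.14 to 0.24 and Hsph1 from -0.068 to 1.03. In IR virus against Sham Bag3 ran from -0.0041 to 0.29, Hsp90aa1 from -0.050 to 0.10, Hspa1a from -0.13 to 0.15, Hspa1b from -0.071 to 0.18 and Hsph1 from -0.083 to 0.068. In IR virus against IR Dnajb1 ran from -0.099 to 0.028, Hsp90aa1 from -0.82 to 0.0048, Hspa1b from -0.18 to 0.18, Hspa8 from -0.39 to 0.0076, Hspb1 from -0.37 to 0.24 and Hsph1 from -1.04 to 0.060. In IR edit against IR Hsph1 ran from -0.38 to 0.71, the latter called (adjusted p = 0.00401).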
